A study of Homo sapiens with 12 samples.

Results

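SNU449 is an established human hepatocellular carcinoma line, and these data are 3' messenger RNA sequencing libraries of SNU449 cells with AXL intact, either labelled as naive to regorafenib or grown until they resisted it. Regorafenib (Rego) is a multikinase inhibitor given against advanced liver cancer. The libraries were chosen by their labels, which gave 6 of the 12 in the series: 3 libraries of wild-type control cells, labelled naive, and 3 of wild-type Rego-resistant cells, labelled as treated long term. Resistant cells came from a dose raised in steps up to 2 times the IC50, and the growth text says that SNU449-derived cells received the drug again after each splitting. That text is the same for all libraries, but the control cells are labelled naive and the study describes them as untreated. A response to drug still in the medium and a change kept over long growth under the drug cannot be told apart in this design. The other 6 libraries are control and Rego-resistant SNU449-Axl- cells, in which CRISPR/Cas9 had removed AXL, and they serve here only to test whether the Rego effect differed with AXL absent. The question of the comparison is which genes, pathways and gene classes change with Rego resistance while AXL is present.

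AXL encodes a receptor tyrosine kinase of the TAM family, and its transcript fits the genotype labels. In the table over the 12 libraries its score, a whole number that the authors derived from the read counts, was 727, 941 and 715 in control SNU449 libraries and 1237, 815 and 1271 in Rego-resistant ones. The SNU449-Axl- libraries scored 35, 53 and 33 as controls and 50, 38 and 52 as Rego-resistant cells. Every library with AXL intact therefore lay far above every library without it. Whether the 3 libraries of a group came from separate cultures is not stated, so the p-values measure spread between libraries of 1 population each, which may be technical. The total count of each library is not given in the sources used here, so the depth is unknown.

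A level in what follows is log2 of a library's score, a variance-stabilized scale, and a log2 fold change is the Rego-resistant minus the control mean level, given with its standard error for 3 libraries against 3. A gene was called when its adjusted p was under 0.05, and only called genes are said to rise, fall or change. The level scale compresses weak genes: a doubling of the count moves the level by 0.385 at 30 counts and by 0.994 at 1000 counts. For leading genes the normalized count of each group was therefore also read from the curve that links level and the authors' mean normalized count, which reaches down to 1.55 counts. Counts of all 4 groups of the series were also solved from the authors' means of the tables that pair the groups (solved counts), which are uncertain for a group near 0. Neither kind of count carries a test.

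Of the cell type markers chosen, the mesenchymal ones were present and the hepatocyte ones were not, although 15 genes of a longer hepatocyte identity list were. None of 8 hepatocyte markers (among them ALB, AFP, TTR, APOA1, APOB, SERPINA1 and HNF4A) and none of 5 endothelial markers passed the authors' filter on low counts into the table. All 4 mesenchymal markers were present, with a summed mean normalized count of 1.99e+04 over VIM, FN1, CDH2 and ZEB1. Of the biliary markers KRT7 and SOX9 were present, at a summed 582 counts, while KRT19 and EPCAM were absent. Immune markers were limited to CD14 and CD68, at a summed 8.79 counts, without PTPRC, CD3E or LYZ. COL1A1, PDGFRB and LUM of the stellate and fibroblast markers summed to 401 counts, without DCN, COL3A1, DES or LRAT. The libraries are bulk RNA, so fewer cells of a kind and less RNA per cell cannot be told apart.

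Regorafenib blocks receptor kinases such as the VEGF receptors, PDGFR, KIT, RET, TIE2 and FGFR1 together with RAF kinases, and it thereby dampens growth factor signalling both in tumour cells and in the vessels around them. AXL, its ligand GAS6 and the ErbB receptors can feed the same RAS, MAPK and PI3K routes when other kinases are blocked. Tumour cells under lasting kinase inhibition are known to move along the epithelial to mesenchymal axis, to shift metabolism and to alter drug export.

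Of 13836 genes tested, 603 were called (4.36%), 324 higher in Rego-resistant cells (2.34%) and 279 lower (2.02%). Without any overlap between the groups, 2765 genes lay higher in every Rego-resistant library (20.0%) and 2539 lay lower (18.4%), and all 603 called genes were among these. Because same-numbered libraries of the groups mirror each other around their mean, lack of overlap means only that the 3 pairs of libraries had the same sign. The median change over all genes was 0.00 and 2494 genes had an unadjusted p under 0.05. Changes of at least 1 on the log2 scale were seen in 144 genes called up and 138 called down, and changes of at least 2 in 21 and 16. Protein-coding genes made up most calls, with 303 up and 256 down of 11629 tested, followed by 15 up and 18 down of 1466 long noncoding RNAs and 3 up and 3 down of 577 pseudogenes. The mitochondrial genome gave 2 calls among 33 genes, the rRNA genes MT-RNR1 at 1.12 ± 0.20 and MT-RNR2 at 0.85 ± 0.17, both named after their values were seen and neither called with values from the table over all libraries.

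Without any 1 replicate number limma called 0 genes, with 1693, 1360 and 1852 genes at an unadjusted p under 0.05 without replicates 1, 2 and 3. Such a fit has 4 libraries and 1 residual degree of freedom, so the design leaves it little power. Of the 603 called genes 594, 575 and 583 kept an unadjusted p under 0.05 in these fits, and all kept their direction. A fit with no replicate block called 2947 genes. Setting each library to the median of its spike-in RNAs (spike-in centring) moved the median of all genes to 0.11 and called 1100 genes, 823 up and 277 down, so that the balance of rises and falls depends on the scaling while 566 of the 603 calls were shared. The spike-in medians were 6.43, 6.25 and 6.30 in control and 6.15, 6.29 and 6.21 in Rego-resistant libraries. The shift was thus largest within replicate 1 and reversed within replicate 2. A fit whose variance prior had no trend with expression (no-trend fit) called 548 genes. Of the named genes it lost the calls of TAGLN, IFITM2, CCND1, JUP, TGFBI, CLDN14, CCL5, CYP2S1, HOXC10, TGFA, ROBO1 and BGN. A fit limited to the 7959 genes with at least 50 mean normalized counts lost those of TAGLN, IFITM2, CCND1, JUP, TGFBI, ACLY, CCN1, COL5A2, NDUFB7, CLPTM1L and MCM6.

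The strongest rise was in IGFBP5 (ENSG00000115461, chromosome 2), a secreted protein that binds insulin-like growth factors. Its levels were 5.46, 4.91 and 5.67 in control and 12.29, 12.86 and 12.09 in Rego-resistant libraries, a log2 fold change of 7.07 ± 0.27 (adjusted p = 5.83e-07). On the curve the control libraries read as 2.6 counts, under 1.55 counts and 6.8 counts, and the Rego-resistant mean was near 5696 counts, so the transcript was weak in control and abundant in Rego-resistant cells. PAPPA, a protease that cleaves IGF-binding proteins and frees the growth factor, rose by 2.00 ± 0.20 (adjusted p = 0.000562). The hair-type keratin KRT81 had levels of 6.07, 6.27 and 5.09 in control and 9.70, 9.50 and 10.67 in Rego-resistant libraries, and it rose by 4.15 ± 0.36 (adjusted p = 0.000204). KRT7, a keratin of simple and biliary epithelium, had levels of 5.58, 5.81 and 4.86 in control and 8.95, 8.72 and 9.68 in Rego-resistant libraries and rose by 3.70 ± 0.30 (adjusted p = 0.000143). Both keratins were weak in control cells and clearly expressed in all Rego-resistant libraries, with no overlap and with the replicate 3 libraries farthest apart. In counts KRT81 went from 10.5 to 999.8 and KRT7 from 2.10 to 556.

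MMP7 and WNT7B rose by a similar amount. MMP7, a small secreted protease that cuts matrix and cell-surface proteins, had levels of 6.15, 6.02 and 5.55 in control and 8.69, 8.82 and 9.29 in Rego-resistant libraries (3.02 ± 0.23, adjusted p = 7.88e-05). For WNT7B, a Wnt ligand, the levels were 6.34, 6.30 and 6.51 in control and 9.44, 9.48 and 9.28 in Rego-resistant libraries (3.01 ± 0.18, adjusted p = 2.69e-05). The groups were well apart for both, and their counts went from 14.03 to 489 and from 37.2 to 678, the latter from 23.2 to 674 in solved counts. GDF15, a stress-induced secreted member of the TGF-beta family, had levels of 8.43, 7.76 and 7.83 in control and 9.95, 10.62 and 10.54 in Rego-resistant libraries, a rise of 2.36 ± 0.26 (adjusted p = 0.00108) from 240.4 to 1333 counts on the curve and from 237 to 1617 solved counts. It was already well expressed in control cells, where IGFBP5 and KRT7 were weak, and rose further in each Rego-resistant library.

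Further rises covered membrane, cytoskeletal and nuclear proteins. The membrane-binding annexin ANXA3 rose by 2.79 ± 0.18 from 2.56 to 291 counts, and SDC2, a heparan sulfate proteoglycan of the cell surface, by 2.67 ± 0.17 from 4.35 to 288. ARHGDIB, an inhibitor that holds small GTPases in their inactive form, rose by 2.52 ± 0.17. PAGE1, a cancer-testis antigen, rose by 2.58 ± 0.25 and was the only called gene of the 4 cancer-testis antigens tested. TAGLN, an actin-binding protein of smooth muscle, rose by 2.56 ± 0.60 (adjusted p = 0.0406) with a wide spread and no call in the no-trend fit or in the fit without replicate block that called 2947 genes, from 6.81, 7.58 and 5.32 in control to 8.89, 8.12 and 10.36 in Rego-resistant libraries. Its groups did not overlap, yet the step within replicate 2 was small beside that within replicate 3. PSG5, a pregnancy-specific glycoprotein, rose by 2.27 ± 0.24, the nucleosome-binding HMGN5 by 2.19 ± 0.24 and the transcriptional coactivator CITED4 by 2.12 ± 0.22. PSG5, KRT81, AKR1C3, IFITM2, HSPA1A and HLA-DRA share sequence with close relatives, so their reads may be assigned with less certainty.

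The largest fall was in UCHL1 (ENSG00000154277, chromosome 4), a deubiquitinase best known from neurons. Its levels were 9.97, 10.05 and 10.21 in control and 5.32, 5.21 and 5.09 in Rego-resistant libraries, and it fell by 4.87 ± 0.18 (adjusted p = 5.83e-07). From about 1088 counts in control cells it went under 1.55 in all 3 Rego-resistant libraries. The other 3 members of its deubiquitinase family were not called, with values of -0.27 for UCHL3, -0.16 for UCHL5 and 0.27 for BAP1. APOL1, an interferon-inducible apolipoprotein, had levels of 9.98, 9.79 and 10.07 in control and 6.32, 6.51 and 6.23 in Rego-resistant libraries and fell by 3.59 ± 0.19 (adjusted p = 1.01e-05). For VCAM1, an adhesion molecule that binds leukocyte integrins, the levels were 9.28, 9.08 and 10.37 in control and 6.34, 6.54 and 5.25 in Rego-resistant libraries (-3.54 ± 0.39, adjusted p = 0.00101). Both were high in every control library and low in every Rego-resistant one.

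Matrix and lipid-storage genes were also among the large falls. LAMA4, a laminin chain of basement membranes, had levels of 8.60, 8.75 and 9.23 in control and 5.81, 5.64 and 5.17 in Rego-resistant libraries, and it fell by 3.32 ± 0.23 (adjusted p = 5.50e-05). PLIN2, which coats lipid droplets, had levels of 11.16, 11.47 and 11.87 in control and 8.63, 8.32 and 7.92 in Rego-resistant libraries and fell by 3.21 ± 0.27 (adjusted p = 0.000169). FN1, the fibronectin of the extracellular matrix and a marker of mesenchymal cells, had levels of 11.30, 10.70 and 10.95 in control and 8.43, 9.03 and 8.78 in Rego-resistant libraries and fell by 2.24 ± 0.25 (adjusted p = 0.00103). LAMA4 came down to 3.96 counts, whereas PLIN2 and FN1 stayed expressed at 303 and 429.5 counts, or at 81.3 and 343 solved counts, against 3400 and 2583 solved counts in controls. All control libraries lay above all Rego-resistant ones for the 3 genes.

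BCAT1, the cytosolic enzyme that transfers the amino group of branched-chain amino acids, fell by 3.32 ± 0.22, from 499 to 6.11 counts. HLF, a PAR bZIP transcription factor known from liver, fell by 3.25 ± 0.24, and CXXC5, a CXXC zinc finger protein linked to Wnt feedback, by 2.97 ± 0.22. The long noncoding RNA LNCAROD fell by 2.75 ± 0.24 and CACNA2D3, a subunit of voltage-gated calcium channels, by 2.39 ± 0.28. NHS, a regulator of actin remodelling, fell by 2.17 ± 0.16 and TNFRSF21, a death-domain receptor, by 2.05 ± 0.19. SLC2A2, the glucose transporter of hepatocytes, fell by 2.06 ± 0.21, from 131 counts to 3.7, 2.2 and under 1.55 in the Rego-resistant libraries. The Wnt ligand WNT5A, which often signals without beta-catenin, fell by 2.15 ± 0.26 while WNT7B rose.

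**Figure D1:**
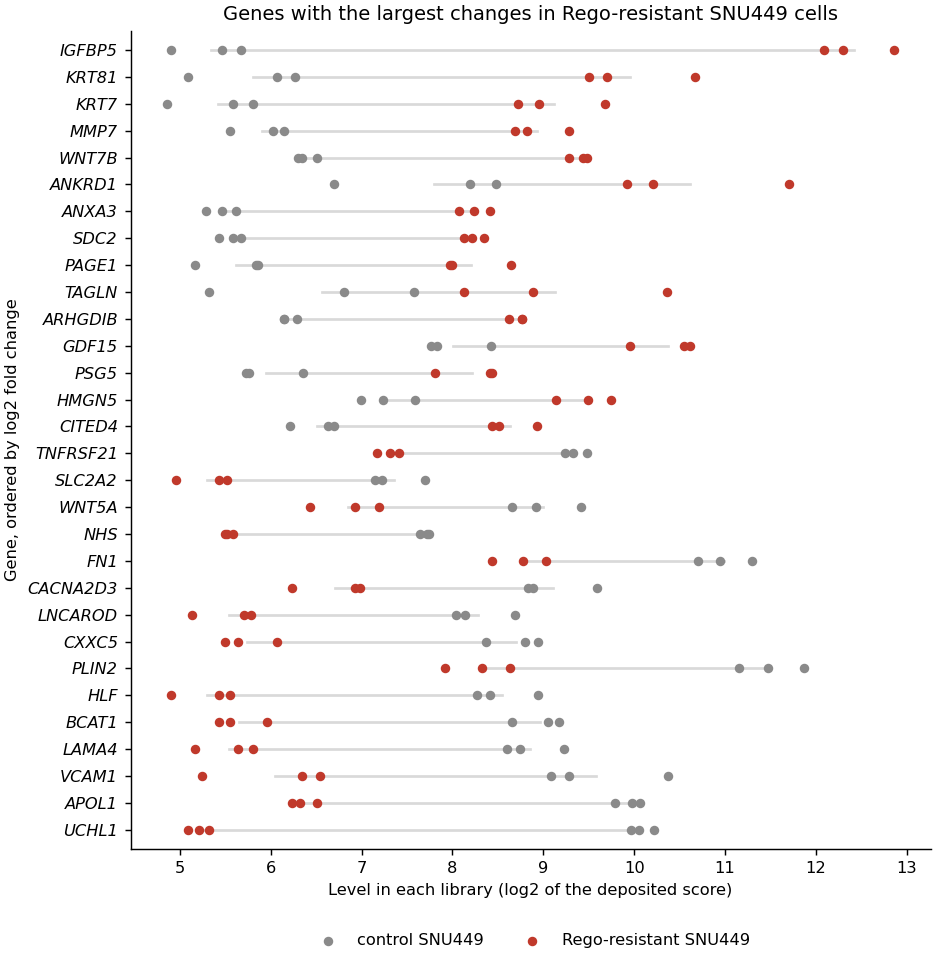
Level (log2 of the score) of the 15 strongest rises and the 15 strongest falls in each of the 3 control and 3 Rego-resistant SNU449 libraries. IGFBP5 moves from under 6 to above 12 and UCHL1 from about 10 to under 6, and the groups do not overlap in any of the 30 genes, as the choice of genes required.

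The promoters of IGFBP5 and UCHL1 are shown because these genes had the largest rise and the largest fall. Each sequence holds the 250 bases before and the 50 after the gene's start, from RefSeq on GRCh38.p14, 5' to 3' on the gene's own strand, IGFBP5 at chr2:216695500-216695799 (-) and UCHL1 at chr4:41256678-41256977 (+). Capitals mark matches, on either strand, to any of 6 motifs: TGANTCA for AP-1, GGAATG for TEAD factors, TTCNNNGAA for STAT factors, TATAAA as the TATA box, CACCTG as the E-box of ZEB and SNAI, and CCGGAAG for ETS factors. IGFBP5 has a TEAD motif on the reverse strand at base -235 from the start, and UCHL1 has TATAAA on the reverse strand at base -29. These and the promoters printed for other genes were chosen after their values were seen, and a match describes letters only.
IGFBP5: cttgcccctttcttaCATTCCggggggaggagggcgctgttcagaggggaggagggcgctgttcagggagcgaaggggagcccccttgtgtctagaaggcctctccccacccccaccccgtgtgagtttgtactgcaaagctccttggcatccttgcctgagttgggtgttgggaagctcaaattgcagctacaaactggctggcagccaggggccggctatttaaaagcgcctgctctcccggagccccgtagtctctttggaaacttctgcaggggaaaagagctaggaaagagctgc
UCHL1: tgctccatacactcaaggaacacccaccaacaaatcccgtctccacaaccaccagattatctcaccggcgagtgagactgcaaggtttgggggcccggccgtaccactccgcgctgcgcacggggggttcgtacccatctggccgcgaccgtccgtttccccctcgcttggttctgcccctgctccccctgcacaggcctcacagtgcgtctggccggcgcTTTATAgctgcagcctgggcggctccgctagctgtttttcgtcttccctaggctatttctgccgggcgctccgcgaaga

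Over 50 gene lists by pathway or class, the counts of called members can be read against 2.34% called up, 2.02% called down and a median of 0.00 over all genes. Of all 13836 genes, 2494 had an unadjusted p under 0.05 in the limma fit. Without overlap 20.0% of all genes lay higher and 18.4% lower. A list's count near these shares is no result about that list. Members were chosen with earlier results known, so these counts are a description. With spike-in centring every list median rises by 0.11, and 10 of the 50 medians then change from below to above 0. These are the lists of mesenchymal state, laminins with integrins, NF-kB with cytokines, oxidative phosphorylation, lipid synthesis, drug-metabolizing enzymes, plasminogen system, p53 targets, epigenetic regulators, and stellate cell with fibroblast markers, whose medians lay between -0.09 and -0.01. Spike-in centring also raised the number of list members called from 135 to 218. The spike-in shift was largest within replicate 1 and ran the other way within replicate 2.

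**Figure D2:**
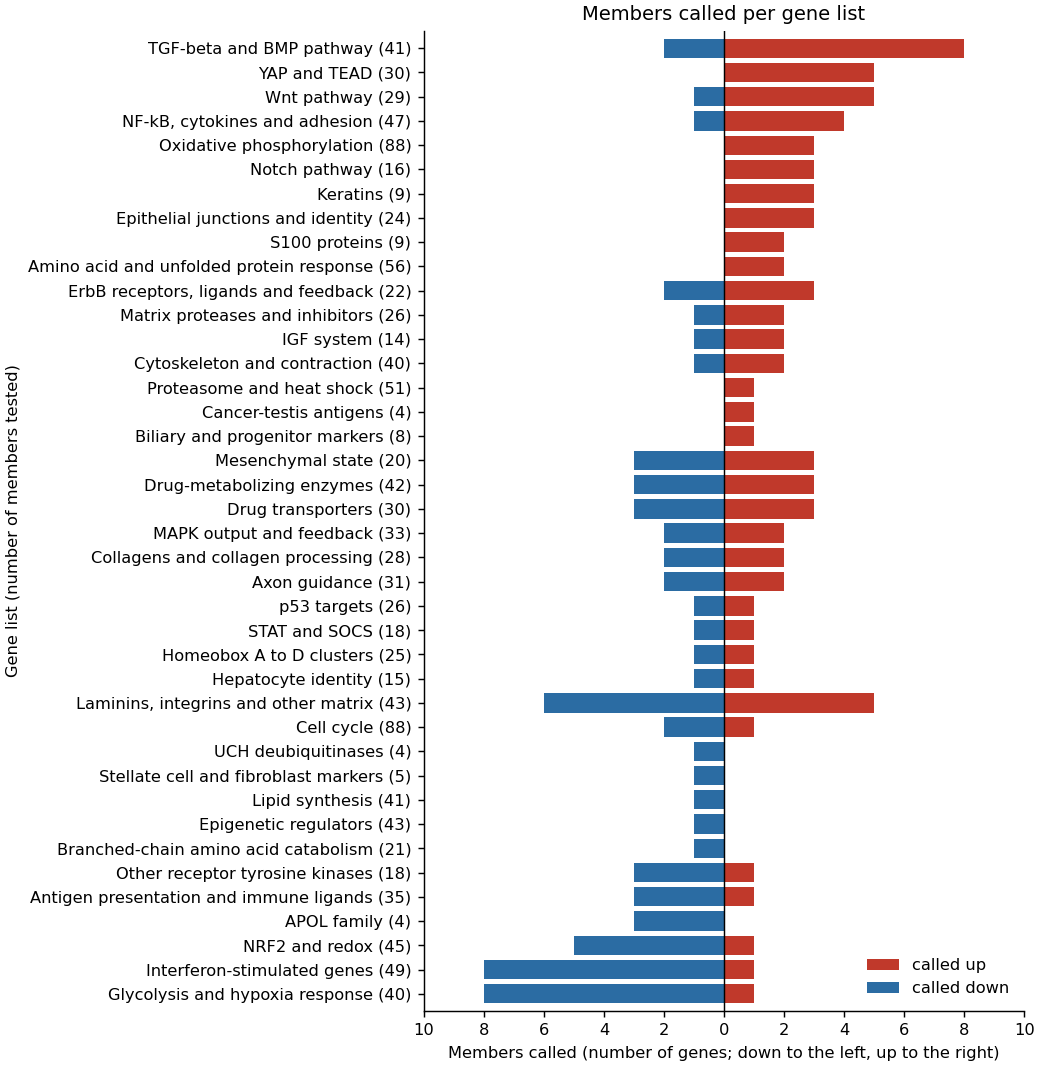
Number of members called up and called down in each gene list that has at least 1 called member, Rego-resistant against control SNU449. Bars to the right count rises and bars to the left falls, with 8 members up in the TGF-beta and BMP list and 8 down in both the interferon list and the glycolysis and hypoxia list.

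Of receptors that could carry growth signals around the drug, 1 of 4 ErbB receptors and 0 of 3 TAM receptors were called, against 4.36% of all genes. The TAM list of 3 receptors and 2 ligands held 0 called genes by limma, with 1 at an unadjusted p under 0.05. AXL itself had levels of 9.34, 9.83 and 9.31 in control and 10.13, 9.63 and 10.16 in Rego-resistant libraries (0.48 ± 0.25, adjusted p = 0.346), and the groups overlapped. AXL lies on chromosome 19, where genes with at least 50 mean normalized counts had a median log2 fold change of 0.40. The AXL ligand GAS6 stood at 0.59 ± 0.19 (adjusted p = 0.118) and was called with spike-in centring and in the fit without replicate block that called 2947 genes, while its value was 0.36 without replicate 3. TYRO3 stood at -0.049, MERTK at -0.16 and the second ligand PROS1 at 0.094. Among the 4 ErbB receptors tested, ERBB4, a receptor for neuregulins, rose by 0.78 ± 0.15 (adjusted p = 0.0166), with levels of 5.36, 5.21 and 5.21 in control and 5.93, 6.07 and 6.11 in Rego-resistant libraries. The groups were apart, but this is a weak transcript that reached only about 19.02 counts in Rego-resistant cells from under 1.55. EGFR had levels of 9.18, 9.42 and 8.71 in control and 9.53, 9.29 and 10.00 in Rego-resistant libraries (0.50 ± 0.27, adjusted p = 0.359), with overlap between the groups, and ERBB2 stood at -0.012 and ERBB3 at 0.018. Of 5 ErbB ligands NRG1, a neuregulin that binds ERBB3 and ERBB4, fell by 1.05 ± 0.23 and TGFA, an EGFR ligand, by 0.65 ± 0.16, the latter not called with spike-in centring. Among 13 feedback inhibitors SPRY2, which damps RAS signalling, rose by 1.21 ± 0.17 and LRIG1, which promotes ErbB degradation, by 0.81 ± 0.16. The whole ErbB list of 22 genes had 3 up and 2 down, against 6 and 1 with spike-in centring.

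The 8 measured kinases that regorafenib inhibits held 0 called genes by limma, 1 of them at an unadjusted p under 0.05. The 10 measured genes of the FGF family also held 0, with 3 at an unadjusted p under 0.05, FGF2 at -0.25 and FGFR1 at -0.18. Of 18 other receptor tyrosine kinases, 1 rose and 3 fell. EPHB4, a receptor for ephrin-B2, rose by 0.85 ± 0.19. The Wnt5a receptor ROR2 fell by 1.14 ± 0.15, the neurotrophin receptor NTRK3 by 1.02 ± 0.17 and IGF1R, the receptor for insulin-like growth factors, by 0.75 ± 0.17. IGF1R is also in the IGF list, where 2 of 14 members rose, IGFBP5 and PAPPA, and 1 fell. The called members were thus 1 binding protein, 1 protease acting on binding proteins and 1 receptor, and the median of the IGF list was 0.03.

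YAP and TEAD act together to switch on genes for growth and the cytoskeleton, and their targets ANKRD1, CCN1 and CCN2 are common readouts of that activity. Of 23 targets tested 5 rose and none fell, with a median of 0.32. ANKRD1, a nuclear and sarcomeric repeat protein, had levels of 8.19, 8.48 and 6.70 in control and 10.21, 9.92 and 11.70 in Rego-resistant libraries (2.82 ± 0.52, adjusted p = 0.0138). CCN2, a matricellular growth factor, had levels of 7.44, 7.50 and 6.67 in control and 8.59, 8.54 and 9.37 in Rego-resistant libraries (1.63 ± 0.29, adjusted p = 0.0125). In both genes every Rego-resistant library was above every control, and replicate 3 gave the widest step. On the curve their counts went from 199 to 1569 and from 111 to 456, and in solved counts from 184 to 2089 and from 120 to 462. FJX1, a secreted protein, rose by 1.10 ± 0.22 and NT5E, the ecto-nucleotidase CD73, by 1.02 ± 0.21. CCN1, a relative of CCN2 named after its values were seen, rose by 0.995 ± 0.24 (adjusted p = 0.0424). The 7 factors of the pathway itself held 0 calls by limma, 1 of them at an unadjusted p under 0.05, so the called genes were all among the targets.

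The promoters of ANKRD1 and CCN2 are shown because these 2 called targets hold the TEAD motif, as do 6 of the 18 target promoters available, against 10.9% of 10088 promoters of tested genes. The promoters of the called targets FJX1 and NT5E lack it. CCN2 at chr6:131951323-131951622 (-) has GGAATG at bases -169, -104 and -95 from the start and TATAAA at -32. ANKRD1 at chr10:90921038-90921337 (-) has GGAATG at -220 and -128, TGANTCA at -195 and CACCTG at -116.
CCN2: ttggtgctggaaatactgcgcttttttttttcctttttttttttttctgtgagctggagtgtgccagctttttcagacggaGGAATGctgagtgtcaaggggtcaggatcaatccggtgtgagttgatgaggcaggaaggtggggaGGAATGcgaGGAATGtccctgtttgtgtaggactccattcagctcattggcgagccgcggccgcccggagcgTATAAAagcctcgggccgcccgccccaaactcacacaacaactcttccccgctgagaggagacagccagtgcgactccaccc
ANKRD1: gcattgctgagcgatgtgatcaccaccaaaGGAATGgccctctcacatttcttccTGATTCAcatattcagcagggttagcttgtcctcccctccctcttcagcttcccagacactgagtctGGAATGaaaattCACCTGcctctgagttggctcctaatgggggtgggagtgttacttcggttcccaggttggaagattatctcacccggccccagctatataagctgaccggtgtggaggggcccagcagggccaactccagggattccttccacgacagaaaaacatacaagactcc

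The TGF-beta and BMP list had 8 of 41 members called up and 2 down (11 and 2 with spike-in centring), with a median of 0.28 (0.15 and 0.14 without replicates 2 and 3). Of the 9 ligands 4 rose, none fell and 7 lay higher without overlap. Besides GDF15 these were INHBB at 1.82 ± 0.25 and INHBA at 1.37 ± 0.28, the beta chains of activins, and BMP6 at 0.91 ± 0.16, a BMP known as an iron signal in liver. The 15 receptors and transducers held 0 calls by limma, 2 of them at an unadjusted p under 0.05. Among 17 inhibitors and targets ID3, a BMP-responsive inhibitor of helix-loop-helix factors, rose by 1.50 ± 0.25 while its relative ID2 fell by 1.34 ± 0.20. FST, a secreted protein that binds and blocks activins, fell by 1.09 ± 0.23. LTBP2, a matrix protein of the latent TGF-beta binding family, and GREM1, which blocks BMPs, were named after their values were seen and rose by 1.09 and 0.86.

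More Wnt and Notch genes were called up than down. Of 29 Wnt genes 5 rose and 1 fell, WNT5A, against 5 and 2 with spike-in centring. Without overlap 8 lay higher and 5 lower, and the median was 0.06. Beside WNT7B the rises were in FZD2, a receptor at 0.95 ± 0.21, in RNF43, a ligase that removes Frizzled receptors, at 0.97 ± 0.16, in NKD2, an inhibitor of Dishevelled, at 0.93 ± 0.17, and in CCND1, the cyclin that drives entry into the cell cycle, at 1.18 ± 0.29. CTNNB1, which encodes beta-catenin, stood at -0.65 ± 0.21 (adjusted p = 0.112). Of 16 Notch genes 3 rose and none fell (7 and 0 with spike-in centring), with a median of 0.22 (0.10 without replicate 3). DNER, a neuronal Notch ligand, rose by 2.04 ± 0.37, the repressor HES1, a direct Notch target, by 1.15 ± 0.18, and DLK1, an inhibitory ligand of fetal liver, by 1.14 ± 0.21.

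A few genes of epithelial cells rose, while the calls of the mesenchymal list went both ways. Of 9 keratins 3 rose and none fell, KRT81, KRT7 and the epithelial KRT80 at 2.10 ± 0.31, while KRT8 and KRT18, the keratins of simple epithelium, stood at -0.069 and 0.28. Among 24 genes of epithelial junctions and identity 3 rose and none fell, against 7 up with spike-in centring and 1 up in the no-trend fit, with a median of 0.36 (0.24 without replicate 3). They were JUP, the plakoglobin of junctions, at 1.20 ± 0.30, and the claudins CLDN2 at 1.08 ± 0.23 and CLDN14 at 0.66 ± 0.15. Of 8 biliary and progenitor markers KRT7 was the only one called. The mesenchymal list had 3 of 20 up and 3 down, against 5 and 3 with spike-in centring. TAGLN, NT5E and the calcium-binding S100A4 at 1.34 ± 0.16 rose, whereas FN1, the repressor ZEB2 at -1.02 ± 0.16 and TNC, the matrix protein tenascin-C, at -0.92 ± 0.20 fell. VIM had levels of 13.89, 14.45 and 13.59 in control and 14.34, 13.77 and 14.63 in Rego-resistant libraries (0.27 ± 0.31, adjusted p = 0.705), ZEB1 stood at 0.31, CDH2 at -0.41 and SNAI1 at 0.11. Vimentin was high in all 6 libraries and the groups overlapped. CDH1 was not in the table. Single markers of both kinds were thus called up, while most members of both lists were not called.

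Of 9 S100 genes 2 rose, S100A4 and S100A6, a calcium-binding relative, at 1.29 ± 0.21. Among 27 actin and myosin genes 1 rose, TAGLN, and 1 fell, FLNC, a filamin that crosslinks actin, at -1.84 ± 0.16, while 14 lay higher without overlap. The tubulin TUBA4A rose by 1.26 ± 0.26, the only call among 13 tubulins and intermediate filaments. Of the 40 cytoskeletal genes 2 rose and 1 fell, against 8 and 1 with spike-in centring, and their median of 0.19 turns to -0.05 without replicate 3.

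Matrix genes were called in both directions. Of 43 laminins, integrins and other matrix genes 5 rose and 6 fell, against 10 and 6 with spike-in centring, and the median of -0.01 turns positive there and without replicate 1. LAMA5, an epithelial laminin chain, rose by 1.48 ± 0.19 while LAMA4 fell. Of the integrin beta chains ITGB5 rose by 1.01 ± 0.18 and ITGB2, a leukocyte chain, by 0.87 ± 0.15, while ITGB3 fell by 1.34 ± 0.18; the laminin-binding ITGA6 rose by 0.77 ± 0.18. BGN, a small proteoglycan named after its values were seen, rose by 0.74. THBS2, a thrombospondin, fell by 1.99 ± 0.23, the TGF-beta-induced adhesion protein TGFBI by 1.44 ± 0.35 and LUM, a collagen-binding proteoglycan, by 0.81 ± 0.15. MATN2, a matrilin named after its values were seen, stood at -0.91 and was also called.

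Among 28 collagens and collagen-processing enzymes 2 rose and 2 fell, against 7 and 2 with spike-in centring, with a median of 0.20. COL4A4, a basement membrane chain, rose by 1.03 ± 0.17 and COL5A2, which helps set fibril size, by 0.85 ± 0.21. The membrane collagen COL13A1 fell by 0.93 ± 0.19 and P4HA1, the prolyl hydroxylase that collagen needs for stability, by 0.87 ± 0.20. COL1A1 missed the threshold at 1.77 ± 0.47 (adjusted p = 0.0644), though it was called with spike-in centring, with upper-quartile scaling and with values from the table over all libraries. Its levels were 7.77, 7.91 and 6.36 in control and 8.68, 8.54 and 10.10 in Rego-resistant libraries. The groups did not overlap, and the step was widest within replicate 3. Of 5 stellate cell and fibroblast markers LUM was the only one called. The 26 matrix proteases and inhibitors had 2 up and 1 down. MMP7 and the aggrecanase relative ADAMTS15 at 0.99 ± 0.16 rose, and ADAMTS9, which cuts proteoglycans, fell by 0.88 ± 0.15. The plasminogen system held 0 calls among 6 genes by limma, 3 of them at an unadjusted p under 0.05.

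The MMP7 promoter at chr11:102530698-102530997 (-) is shown because MMP7 is the protease with the largest rise and because AP-1 sites are textbook elements of MMP promoters. It has TGANTCA at base -67 and TATAAA at base -30, motifs that 4.5% and 5.5% of the 10088 promoters hold.
MMP7: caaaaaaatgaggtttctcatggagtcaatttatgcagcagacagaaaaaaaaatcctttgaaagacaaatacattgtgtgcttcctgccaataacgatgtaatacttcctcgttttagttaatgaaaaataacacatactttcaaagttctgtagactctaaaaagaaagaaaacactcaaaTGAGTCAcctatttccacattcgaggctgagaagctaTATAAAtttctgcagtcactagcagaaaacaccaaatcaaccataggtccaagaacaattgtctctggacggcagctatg

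More interferon-responsive genes fell than rose. Of 49 interferon-stimulated genes 8 fell and 1 rose, 14 lay lower and 5 higher without overlap, and the median was -0.16 (-0.085, -0.37 and -0.058 without replicates 1, 2 and 3). The guanylate-binding proteins, GTPases that act against intracellular pathogens, gave GBP1 at -1.30 ± 0.25 and GBP4 at -1.05 ± 0.22. SP110, a nuclear body protein, fell by 0.98 ± 0.20, and IFI16, a sensor of DNA, by 0.95 ± 0.20. GBP1 had levels of 9.16, 8.85 and 8.46 in control and 7.19, 7.50 and 7.90 in Rego-resistant libraries, and IFI16 had 9.37, 9.13 and 9.27 in control and 8.18, 8.43 and 8.29 in Rego-resistant libraries. All control libraries were above all Rego-resistant ones in both. SOCS1, which shuts off cytokine signalling, fell by 0.82 ± 0.16. Named after their values were seen, TRIM22, an antiviral ligase, stood at -0.92, GBP3 at -0.85 and DDX60L, a helicase-like antiviral protein, at -0.75, all called. IFITM2, which blocks virus entry, was the exception at 1.50 ± 0.35 (adjusted p = 0.0405), a call lost in the no-trend fit. The APOL family, lipid-binding proteins induced by interferon, had 3 of 4 members down with a median of -1.13: APOL1, APOL2 at -1.43 ± 0.18 and APOL6 at -0.82 ± 0.18, with APOL3 at -0.42 ± 0.17 not called. Medians of both lists stayed below 0 with spike-in centring.

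Antigen presentation and cytokine lists held fewer calls. Of 35 genes of antigen presentation and immune ligands 3 fell and 1 rose, the NT5E already given among the YAP targets. Among 15 MHC class I genes the immunoproteasome subunits PSMB8 and PSMB9, which shape peptides for display, fell by 1.13 ± 0.21 and 1.07 ± 0.22. HLA-DRA, a class II chain, fell by 0.78 ± 0.14. The NF-kB, cytokine and adhesion list had 4 of 47 up and 1 down, against 7 and 1 with spike-in centring. Its median of -0.01 turns positive there and without any 1 replicate number. The chemokines CXCL5 at 0.93 ± 0.15 and CCL5 at 0.70 ± 0.16 rose, as did the NF-kB target TNFAIP2 at 0.88 ± 0.19 and the decoy receptor IL13RA2 at 0.85 ± 0.15, and VCAM1 fell. Of 18 STAT and SOCS genes 1 rose and 1 fell. STAT3, a transcription factor that relays cytokine and growth factor signals, had levels of 8.80, 8.82 and 8.76 in control and 10.36, 10.34 and 10.40 in Rego-resistant libraries (1.57 ± 0.20, adjusted p = 0.00172). The differences within the 3 pairs of libraries were alike, and the count rose 2.99-fold. The 3 immune cell markers and the 2 endothelial markers of longer lists held 0 calls by limma and 0 at an unadjusted p under 0.05.

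The GBP3 promoter at chr1:89022817-89023116 (-) is shown as the called interferon gene whose promoter holds TTCNNNGAA, which is found in 8 of 36 promoters of the list's sensors and effectors and in 6.42% of all. In GBP3 the motif starts at base -15, right after TGANTCA at base -23. GBP3 was the only called gene among those 8, while DDX60L, GBP1, GBP4, IFI16 and SP110 were called and lack the motif.
GBP3: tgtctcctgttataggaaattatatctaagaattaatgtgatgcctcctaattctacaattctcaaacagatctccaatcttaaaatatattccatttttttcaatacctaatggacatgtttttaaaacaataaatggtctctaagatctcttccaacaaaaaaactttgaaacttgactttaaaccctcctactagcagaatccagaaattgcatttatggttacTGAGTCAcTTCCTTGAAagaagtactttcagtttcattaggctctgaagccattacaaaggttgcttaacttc

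More genes of glucose use and of the hypoxia response fell than rose. Of 40 such genes 8 fell and 1 rose, 20 lay lower and 3 higher without overlap, and the median was -0.43, which stays below 0 with spike-in centring. Among 20 glycolysis genes 3 fell, none rose and 12 lay lower without overlap, with a median of -0.51. PDK1, a kinase that keeps pyruvate out of mitochondria, had levels of 7.88, 7.84 and 8.11 in control and 6.78, 6.82 and 6.54 in Rego-resistant libraries (-1.23 ± 0.18, adjusted p = 0.00475). The glucose transporter SLC2A3 fell by 1.03 ± 0.19 and hexokinase HK1, which traps glucose in the cell, by 0.81 ± 0.18, the latter not called with spike-in centring. SLC2A3 and HK1 were named outside the naming rule, after their values were seen. LDHA, which makes lactate, and PGK1, a step of glycolysis, were singled out after their values were seen and stood at -1.13 ± 0.30 (adjusted p = 0.0628) and -1.11 ± 0.38 (adjusted p = 0.143), though both were called with spike-in centring.

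Of 20 hypoxia factors and targets 5 fell and 1 rose. BNIP3, a mitophagy receptor induced by low oxygen, had levels of 10.24, 10.29 and 10.61 in control and 9.07, 9.02 and 8.69 in Rego-resistant libraries (-1.46 ± 0.22, adjusted p = 0.00518). For PDK1 and BNIP3 alike, all controls were high and all Rego-resistant libraries low. STC1, a secreted hormone induced by low oxygen, fell by 1.35 ± 0.29, and EPAS1, the transcription factor HIF-2 alpha, by 1.14 ± 0.22 (adjusted p = 0.0174). P4HA1, named among the collagen enzymes, belongs here as well, and BNIP3L, a relative of BNIP3 named after its values were seen, stood at -1.07 and was called. HIF1A, which encodes HIF-1 alpha, stood at 0.15 ± 0.23 (adjusted p = 0.794). EGLN3, a prolyl hydroxylase that marks HIF for degradation, rose by 1.43 ± 0.21, against the direction of the list.

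Mitochondrial and lipid lists held fewer calls. Of 88 oxidative phosphorylation genes 3 rose and none fell (8 and 0 with spike-in centring): NDUFS6 at 0.93 ± 0.20 and NDUFB7 at 0.86 ± 0.21 of complex I, and ATP5F1D at 0.83 ± 0.17 of ATP synthase. NDUFS6 lies on chromosome 5 in the window from 0 to 10 Mb, whose genes had a median of 0.57. Counts of called list members take no account of position. The 13 mitochondrially encoded members held 0 calls by limma, 6 of them at an unadjusted p under 0.05, with 9 higher without overlap, while the list's median of -0.06 turns positive with spike-in centring and without replicate 3. Of 41 lipid synthesis genes 1 fell, ACLY, which makes cytosolic acetyl-CoA, at -0.93 ± 0.22, not called with spike-in centring. BCAT1 was the only call among 21 genes of branched-chain amino acid catabolism. Of 56 amino acid and unfolded protein response genes 2 rose, GDF15 and PYCR1, which makes proline, at 1.03 ± 0.19, and none fell, against 10 up and 0 down with spike-in centring. Of the 35 ATF4 targets 11 lay higher and 0 lower without overlap.

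Of 45 NRF2 and redox genes 5 fell and 1 rose, GPX4, whereas 5 fell and 5 rose with spike-in centring. By library values 18 lay lower and 7 higher without overlap, and the median was -0.23. TXNRD1, the thioredoxin reductase, had levels of 11.46, 11.80 and 11.64 in control and 10.50, 10.16 and 10.32 in Rego-resistant libraries (-1.31 ± 0.22, adjusted p = 0.00949). AKR1C3, an aldo-keto reductase of steroids and carbonyls, fell by 1.25 ± 0.27, GSR, which regenerates glutathione, by 1.06 ± 0.22, and PIR, an NRF2 target, by 0.91 ± 0.18. The fifth fall was in the exporter ABCC2, given among the transporters. GPX4, which reduces lipid peroxides and guards against ferroptosis, had levels of 7.75, 7.77 and 7.79 in control and 9.11, 9.10 and 9.08 in Rego-resistant libraries (1.33 ± 0.18, adjusted p = 0.00300). TXNRD1 was high in all controls and GPX4 in all Rego-resistant libraries, without overlap. The 3 metallothioneins measured held 0 calls by limma and 0 at an unadjusted p under 0.05.

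**Figure D3:**
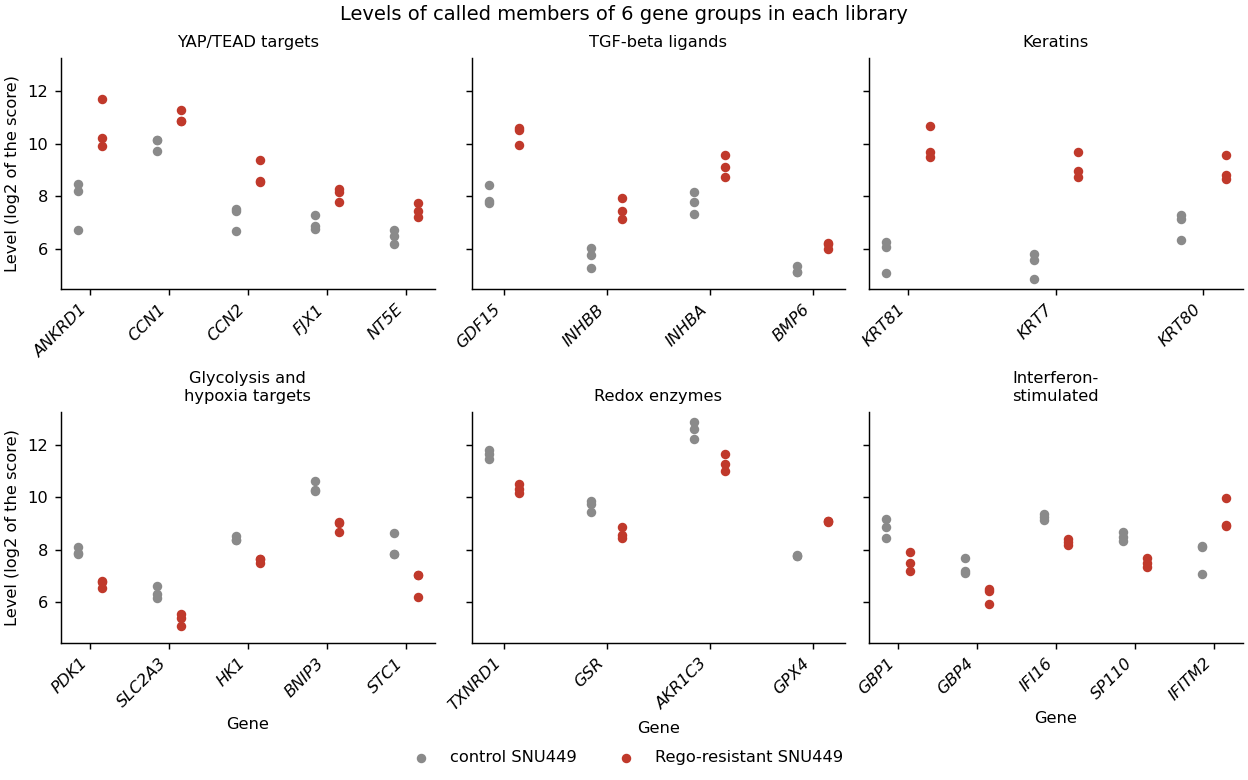
Level (log2 of the score) in each SNU449 library for called members of 6 gene groups: YAP and TEAD targets, TGF-beta ligands, keratins, glycolysis with hypoxia, redox and interferon genes. Control and Rego-resistant libraries do not overlap in any gene shown, and GPX4 and IFITM2 move opposite to most of their group.

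Of 30 drug transporters 3 rose and 3 fell, against 7 and 3 with spike-in centring, while 14 lay higher and 5 lower without overlap. ABCB1, the efflux pump P-glycoprotein, had levels of 6.32, 6.02 and 5.98 in control and 6.82, 7.12 and 7.16 in Rego-resistant libraries (0.93 ± 0.18, adjusted p = 0.0174). The groups were apart, and the count went from 22.3 to 91.6. SLC29A1, a nucleoside carrier, rose by 0.97 ± 0.20 and SLC47A1, an exporter of organic cations, by 0.87 ± 0.20. The hepatic uptake carrier SLCO2B1 fell by 1.22 ± 0.15, the cholesterol exporter ABCA1 by 0.88 ± 0.19 and ABCC2, an exporter of conjugates, by 0.86 ± 0.20. Of 42 drug-metabolizing enzymes 3 rose and 3 fell, with a median of -0.01 that turns positive with spike-in centring. It was 0.08 without replicate 1 and -0.08 without replicate 2. ALDH1A3, which makes retinoic acid, rose by 1.98 ± 0.32 while its relative ALDH1A1 fell by 1.18 ± 0.26. CYP2S1, a cytochrome P450, rose by 0.64 ± 0.16. NNMT, which methylates nicotinamide, fell by 1.22 ± 0.27 and CYP1B1, a target of the aryl hydrocarbon receptor, by 0.97 ± 0.20. Of 15 hepatocyte identity genes DLK1 rose and CP, the copper carrier ceruloplasmin, fell by 1.65 ± 0.28.

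Of 88 cell cycle genes 1 rose and 2 fell, with a median of -0.25 (-0.43, -0.12 and -0.099 without replicates 1, 2 and 3), 20 lower and 7 higher without overlap. CCND1 rose, whereas CCND3, a cyclin of the same class, fell by 0.74 ± 0.18 and MCM6, a subunit of the replicative helicase, by 0.89 ± 0.22; CCND3 was not called with spike-in centring, nor CCND1 in the no-trend fit. The 41 genes of G2 and mitosis held 0 calls by limma, 8 of them at an unadjusted p under 0.05. Of 33 genes of MAPK output and feedback 2 rose, SPRY2 and CCND1, and 2 fell, the membrane protein EMP1 by 1.09 ± 0.18 and DUSP5, a phosphatase of nuclear ERK, by 0.69 ± 0.16, the latter not called with spike-in centring, which gave the list 5 up and 1 down. The 26 genes of the BCL2 family and death receptors held 0 calls by limma, 6 of them at an unadjusted p under 0.05. Of 26 p53 targets GDF15 rose and PLK2, a kinase induced by stress, fell by 1.45 ± 0.20, the only calls of that list.

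The 77 cytosolic ribosomal proteins held 0 calls by limma, 7 of them at an unadjusted p under 0.05, with a median of -0.15 (-0.27, -0.24 and 0.040 without replicates 1, 2 and 3). The 50 lysosome and autophagy genes also held 0, with 9 at an unadjusted p under 0.05. Of 51 proteasome and heat shock genes 1 rose, HSPA1A, an inducible HSP70, at 0.92 ± 0.19. CXXC5 was the only call among 43 epigenetic regulators. Of 25 HOX genes HOXC10 rose by 0.60 ± 0.15, a call lost in the no-trend fit and among genes with at least 10 mean counts, and HOXB6 fell by 1.16 ± 0.18, with 11 lower and 3 higher without overlap; both genes encode transcription factors of body patterning. Of 31 axon guidance genes PLXNA1, a semaphorin receptor, rose by 1.38 ± 0.18 and EFNA1, a membrane-bound ephrin, by 0.99 ± 0.19. SEMA3E, a secreted semaphorin, fell by 1.38 ± 0.16 and ROBO1, the receptor for slits, by 0.65 ± 0.16, which was not called with spike-in centring.

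Promoters were matched for 10088 of the 13824 tested genes that have a symbol of their own. Of the 6 motifs spelled out beside the IGFBP5 promoter, ETS sites stood apart most: 11.9% of 244 promoters of genes called up and 3.63% of 193 of genes called down held one, against 20.0% of all. AP-1 matched 4.92% of the risen, 9.33% of the fallen and 4.5% of all promoters. TEAD matched 13.1%, 6.74% and 10.9% in the same order, and STAT 4.92%, 8.81% and 6.42%. TATAAA was found in 9.84% and 10.4% against 5.5% of all, and the E-box of ZEB and SNAI in 17.6% and 19.2% against 17.8%. TEAD was thus more frequent in risen than in fallen genes and AP-1 the reverse, as a description without a test.

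Position on the genome also marked the changes. In SNU449 cells chromosome 19 had the largest median shift of all chromosomes: 47 of its 969 genes rose (4.85%) and 3 fell (0.31%), against 275 up (2.14%) and 276 down (2.15%) among 12830 genes elsewhere. Its 466 genes with at least 50 mean normalized counts had a median log2 fold change of 0.40, or 1.49-fold in counts, and 92.7% of them lay above 0. The median within replicate numbers 1, 2 and 3 was 0.37, 0.40 and 0.44, so it did not rest on 1 library pair. Windows of 10 Mb with at least 15 such genes had medians from 0.33 to 0.47 along chromosome 19. The window from 20 to 30 Mb had too few of them, and its median over all 49 tested genes was 0.10, against 0.23 to 0.34 in the other windows by the same measure. In SNU449-Axl- cells the median Rego effect on chromosome 19 was -0.29, with the window from 10 to 20 Mb at -0.53 and that from 30 to 40 Mb at 0.28, and 147 of the 466 genes differed between the backgrounds (6.40% of the 13836 genes did). The SNU449 median of 0.40 is from the 6 SNU449 libraries, and it was 0.48 in a fit over all 12 libraries. Shifts of this size were not limited to chromosome 19 or to SNU449, since chromosomes 9 and 4 had median Rego effects of 0.40 and 0.37 in SNU449-Axl- cells. The reason for the shift was not tested.

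Called genes on chromosome 19 include GDF15, GPX4 and PSG5. The DNA repair helicase ERCC2 rose by 1.34 ± 0.22, UBE2M, which conjugates NEDD8, by 1.19 ± 0.19, and the secretory GTPase RAB3D by 1.51 ± 0.17. SBK2, a kinase, rose by 2.05 ± 0.22, STAP2, a signalling adaptor, by 1.62 ± 0.24, FXYD5, a subunit of the sodium pump, by 1.46 ± 0.20 and CACNG6, a calcium channel subunit, by 1.49 ± 0.22. EML2, which binds microtubules, rose by 1.16 ± 0.19, and TMEM147, a membrane protein of the endoplasmic reticulum, by 1.05 ± 0.19. Against the direction of the chromosome the calcium channel gene CACNA1A fell by 1.19 ± 0.19.

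Chromosome 5 was split, with the windows from 0 to 10 Mb and from 30 to 40 Mb at medians of 0.57 and 0.48 and those from 120 to 130 Mb and from 160 to 170 Mb at -0.29 and -0.34. In the former lie NPR3, a clearance receptor for natriuretic peptides (1.97 ± 0.26), LPCAT1, which remodels phospholipids (1.21 ± 0.19), CLPTM1L (0.86 ± 0.21), the threonyl-tRNA synthetase TARS1 (1.001 ± 0.22), GOLPH3 of the Golgi (0.76 ± 0.18) and NDUFS6. In the latter lie the adhesion protein TENM2 (-1.84 ± 0.22), the mitotic SPDL1 (-1.02 ± 0.21) and the nuclear lamin LMNB1 (-0.84 ± 0.19), the last not called with spike-in centring. On chromosome 7 the windows from 70 to 80, 90 to 100 and 150 to 160 Mb had medians of 0.35, 0.34 and 0.38, and the window from 20 to 30 Mb had -0.39. Genes there include BUD23, a methyltransferase of rRNA (0.96 ± 0.19), MDH2, the mitochondrial malate dehydrogenase (0.92 ± 0.19), HIP1, a clathrin adaptor (0.88 ± 0.17) and ESYT2, a lipid-transfer tether (0.82 ± 0.18). From 20 to 30 Mb STEAP1B fell by 0.93 ± 0.17 and CDCA7L, a MYC interactor, by 0.80 ± 0.18, while SCRN1, a regulator of exocytosis, rose by 0.96 ± 0.18.

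**Figure D4:**
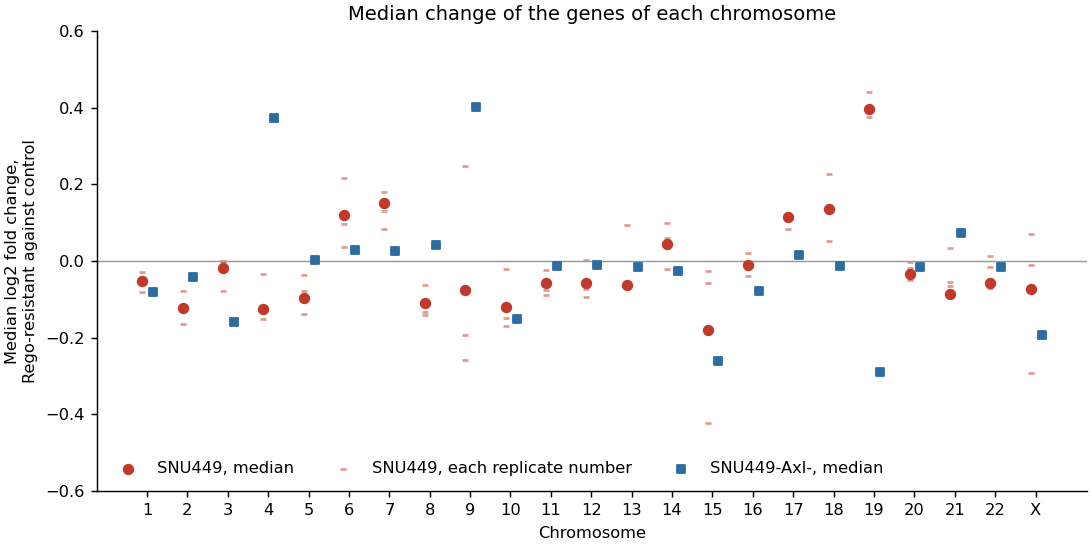
Median log2 fold change (Rego-resistant minus control) of genes with at least 50 mean normalized counts on each chromosome, for SNU449 (circles, with each replicate number as a short dash) and for SNU449-Axl- (squares). Chromosome 19 is at 0.40 in SNU449 (0.48 in a fit over all 12 libraries) and at -0.29 in SNU449-Axl-.

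Much of the Rego effect differed from that in SNU449-Axl- cells. A fit over the 12 libraries called 916 of 15601 genes (5.87%) for the difference between the effects (223, 112 and 745 without replicates 1, 2 and 3), 461 more positive and 455 more negative in SNU449, against 228 and 669 with spike-in centring (chosen here after seeing the data), and 886 of the 13836 genes of the SNU449 comparison (6.40%). Among the 603 called genes the difference was called for 344, 175 of the 324 that rose and 169 of the 279 that fell; genes with large changes pass such a test more easily. In SNU449-Axl- cells 619 of the 13836 genes were called (4.47%). Of the 324 risen genes 36 were also called up there and 15 were called down, and of the 279 fallen genes 26 were also called down and 32 were called up.

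In this 12-library fit IGFBP5 stood at 7.89 ± 0.32 in SNU449 and at 0.44 ± 0.32 in SNU449-Axl-, a difference of 7.45 ± 0.45 (adjusted p = 1.25e-08). UCHL1 stood at -5.78 ± 0.19 and -0.12 ± 0.19 (adjusted p of the difference = 6.48e-10). Both effects were thus larger in SNU449 than in SNU449-Axl- cells. AXL status cannot be told apart in this design from other differences between the SNU449 and SNU449-Axl- populations. KRT7, KRT81, WNT7B, GDF15 and BCAT1 also had effects in SNU449 that differed from those in SNU449-Axl-, where their values were 0.57, 0.19, 0.29, -0.15 and 0.00. Control SNU449-Axl- cells already held 482 solved counts of KRT7, 1271 of KRT81, 521 of WNT7B and 1104 of GDF15, beside 645, 1057, 674 and 1617 in Rego-resistant SNU449 cells. No starting level in SNU449-Axl- cells is given here for BCAT1, IGFBP5 and UCHL1, and an effect there depends on that level. The adhesion gene VCAM1 and the matrix gene FN1 had effects of opposite sign, VCAM1 with -4.10 ± 0.40 in SNU449 and 1.80 ± 0.40 in SNU449-Axl-, and FN1 with -2.24 ± 0.36 and 2.47 ± 0.36. HLF, at 1.64 in SNU449-Axl-, and CXXC5, at 1.06, also had opposite signs. MMP7 rose in both, by 3.65 ± 0.26 in SNU449 and by 5.76 ± 0.26 in SNU449-Axl-, with the larger rise in the latter (adjusted p of the difference = 0.00222).

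The difference was called for 3 of 23 YAP and TEAD targets, 14 of 45 redox genes and 12 of 49 interferon-stimulated genes, against 6.40% of all 13836. CCN2 and ANKRD1 had -0.40 and 0.28 in SNU449-Axl- (adjusted p of the difference = 0.00572 and 0.0217). For ANKRD1 control and Rego-resistant SNU449-Axl- cells held 1537 and 2078 solved counts, so it was already high without AXL, and for CCN2 they held 300 and 249. TXNRD1 stood at 0.40, AKR1C3 at 1.72, GBP4 at 2.32 and IFI16 at 1.05 there, each with a called difference from its fall in SNU449. The groups started apart: solved counts of AKR1C3 were 7457 in control and 2224 in Rego-resistant SNU449 cells, and 2663 and 8517 in SNU449-Axl- cells. Control SNU449-Axl- cells held 1776 of TXNRD1, 19.5 of GBP4 and 338 of IFI16, against 3420, 144 and 658 in control SNU449 cells. For STAT3, GPX4 and ABCB1, at 0.71, 0.67 and 0.40 in SNU449-Axl-, the difference was not called (adjusted p = 0.0793, 0.201 and 0.316). LAMA4, WNT5A and INHBB had -3.70, -1.76 and 2.36 there against -4.10 ± 0.24, -2.46 ± 0.25 and 2.38 ± 0.29 in SNU449 in the same fit, and these differences were not called either (adjusted p = 0.572, 0.298 and 0.994). On simulated data the test of the difference recovered only 23 of 200 differences of 1, so differences of that size or smaller can be missed.

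**Figure D5:**
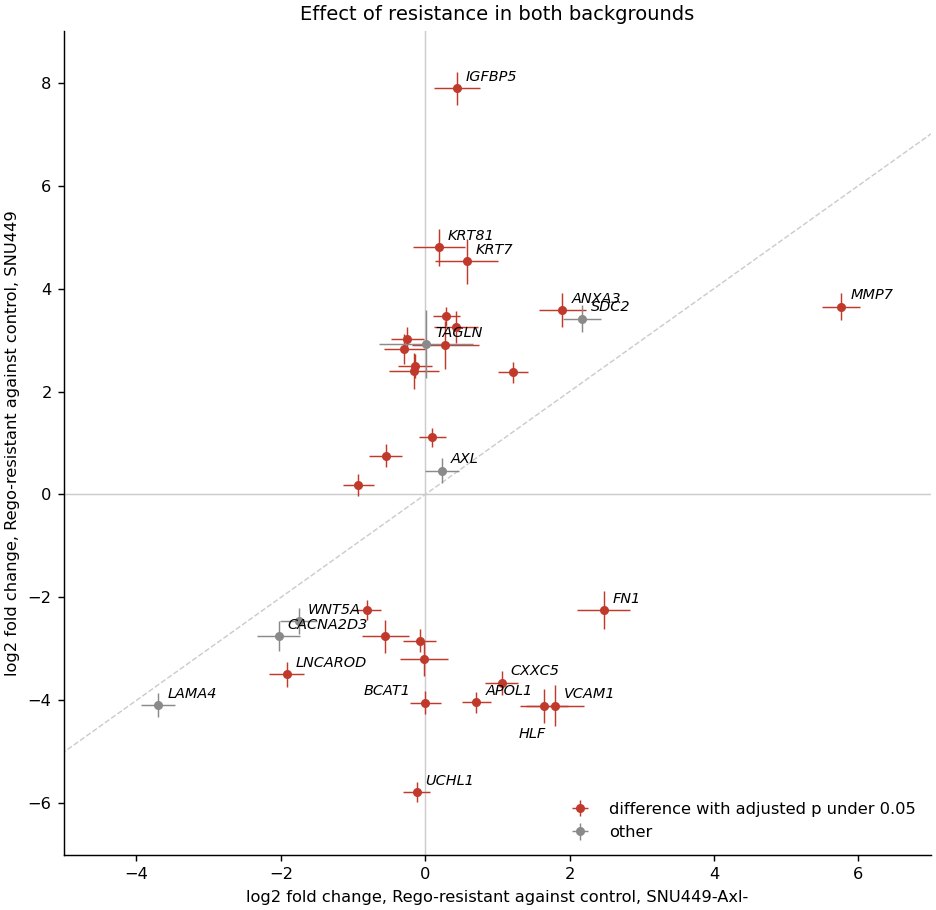
Log2 fold change (Rego-resistant minus control) in SNU449-Axl- on the horizontal axis and in SNU449 on the vertical axis for the 30 leading genes and for AXL, GAS6, ERBB4 and SNAI1, with standard errors from the 12-library fit, a dashed line where both effects are equal, and red where the difference was called. VCAM1, FN1, HLF and CXXC5 fall in SNU449 and are above 1 in SNU449-Axl-, while LAMA4 and LNCAROD are low in both.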

How the data were processed

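The authors trimmed the reads with cutadapt 4.0, aligned them with STAR 2.5.3a to GRCh38 and compared groups with DESeq2. The library values are deposited as a score, which is 2 raised to the variance-stabilized level after the authors removed the effect of the preparation date, rounded. The authors' mean normalized count (a signal) is pooled over the libraries of each table. The authors' fold changes and p-values for each pair of groups were not used. Here log2 of the score was fitted with limma 3.58.1 (R 4.3.3, lmFit and eBayes with trend) with the replicate number as block, since the date removal left same-numbered libraries of the groups mirrored around their mean (correlation between -0.999307 and -0.998978 across genes). P-values were adjusted by Benjamini-Hochberg over all 13836 genes, without the 29 spike-in rows, and called under 0.05. The difference between backgrounds is the interaction contrast of the same model over 12 libraries and 15601 genes. Python 3.11.15 with pandas 2.3.3, numpy 2.4.6, scipy 1.17.1 and matplotlib 3.10.9 did the rest. Gene lists, and members of the comparison, were chosen with earlier results of these data known. Named genes are the 15 largest called rises and falls, up to 4 called members per list and direction, members of small families, genes that the study's paper names, cell type markers and up to 3 genes per named window; exceptions are marked, and some genes are not reported here. Counts were read from the curve of level against the authors' mean over genes whose log2 fold change lay within 0.2 of 0, with a median error of 2.43% in 266 genes with changes of at least 1. Solved counts came from nonnegative least squares on the authors' means of 6 paired tables (median error 0.432%). The block was tested on simulated data. Alternatives changed the block, scaling, pseudocount, filters, trend and libraries. The number of reads per library is not given in the sources used here.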

Additional observations from a re-analysis of the deposited data

Results flagged for a closer look

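A fit over all 12 libraries found that the Rego effect differed between SNU449 and SNU449-Axl- cells for 344 of the 603 called genes, against 6.40% of all 13836, and for 25 of the 30 genes named by size. These genes were chosen for a large effect in the same SNU449 libraries that the difference uses. With genes named by the study's paper, 28 such genes are listed. Each value here is the log2 effect in SNU449 minus that in SNU449-Axl-, and each difference passed the test at an adjusted p under 0.05. Effects that were more positive in SNU449 were those of IGFBP5 by 7.45, WNT7B by 3.17, GDF15 by 2.55, PSG5 by 3.11, the AXL ligand GAS6 by 1.30 and the receptor ERBB4 by 1.02. So were the keratins KRT81 by 4.61 and KRT7 by 3.96. The same held for ARHGDIB at 3.27, PAGE1 at 2.83, CITED4 at 2.64, ANKRD1 at 2.63, ANXA3 at 1.68, HMGN5 at 1.16 and the repressor SNAI1 at 1.11.

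Effects that were more negative in SNU449 were those of VCAM1 at -5.91, HLF at -5.75, FN1 at -4.71 and CXXC5 at -4.71. UCHL1 differed by -5.66, APOL1 by -4.75, BCAT1 by -4.04 and the lipid droplet gene PLIN2 by -3.18. NHS stood at -2.77, the glucose transporter SLC2A2 at -2.20, the protease MMP7 at -2.11, LNCAROD at -1.57 and TNFRSF21 at -1.44. MMP7, ANXA3 and HMGN5 rose in both backgrounds, and LNCAROD and TNFRSF21 fell in both. A difference can come from control cells as well as from Rego-resistant ones. GAS6 and SNAI1 were not called within SNU449 itself. Over all genes the balance of positive and negative differences depends on the scaling, at 461 and 455 called, and at 228 and 669 with spike-in centring, chosen after seeing the data. The cause of these differences was not tested.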

How the results depend on the processing

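The count of called genes was 603. It was 2947 with no replicate block, which ignores the mirroring of same-numbered libraries, 1100 with spike-in centring, 331 of 7959 genes with at least 50 mean normalized counts, 282 if changes must also reach 1 on the log2 scale, and 0 without replicate 1, 2 or 3 (limma; 1693, 1360 and 1852 at an unadjusted p under 0.05). A fit without 1 replicate number has 4 libraries and 1 residual degree of freedom, and 594, 575 and 583 of the 603 kept an unadjusted p under 0.05 there. All 603 kept their direction in each of these fits that tested them. It stayed within 1.5 times with a pseudocount of 1 (603), upper-quartile scaling (777), at least 10 mean counts (609), values from the table over all libraries (762) and no trend (548). A fit over all 12 libraries, chosen after seeing the data, called 1220 of 15601 genes, and 345 to 839 without 1 replicate number. For the difference between backgrounds, 916 genes were called, 1827 with no replicate block, 112 to 745 without 1 replicate number, and 897 with spike-in centring, chosen after seeing the data. That last fit shared 683 of the 916, called 228 positive and 669 negative against 461 and 455, and had a median of -0.19 over all genes. List members called were 135, with 376 with no replicate block, 218 with spike-in centring, and 0 without any 1 replicate number. Some uncalled genes changed sign. With spike-in centring ERBB2 came to 0.10 and TYRO3 to 0.062. Over the fits without 1 replicate number ERBB2 ranged from -0.041 to 0.023 (positive without replicate 1), ERBB3 from -0.080 to 0.17 (negative without replicate 1 or 2), HIF1A from -0.036 to 0.38 (negative without replicate 2) and VIM from -0.11 to 0.74 (negative without replicate 3). The cause was not tested, other than that fewer libraries were fitted. Weak transcripts are limited by the unknown depth and by the compressed scale.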

Other observations

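Some chromosomes differed between replicate numbers. On chromosome 9 the median Rego-resistant minus control difference of 305 genes was -0.19, -0.26 and 0.25 within replicate numbers 1, 2 and 3, and on chromosome 15 that of 232 genes was -0.03, -0.06 and -0.42. On the X chromosome 243 genes gave -0.01, 0.07 and -0.29. Replicate number 3 thus stood apart from the other 2 on these chromosomes, and the reason was not tested.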
